A study of Mus musculus with 16 samples.

Results

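Cortex of BK-deficient mice was set against cortex of wild type littermates after undisturbed sleep. The libraries were chosen by their labels: the 4 baseline knockouts (KO_BL) and the 4 baseline wild types (WT_BL), 8 of the 16 total RNA-seq libraries in the series. All 16 mice were on an F1 C57Bl6/J x Sv129 background, lived in pairs under a 12:12 light:dark cycle, and each gave 1 library. KO_BL and WT_BL mice were left alone in the home cage for the first 4 h of the light phase, and cortex was frozen at zeitgeber time 4 (ZT4). The remaining mice, 4 BK-deficient (KO_SD) and 4 wild type littermates (WT_SD), were kept awake by gentle handling over the same 4 h, and they serve here only to show how a baseline difference looked in other animals of the same genotypes. The labels give neither the knockout allele, nor sex or age, nor which animals shared a litter or a cage. A gene was tested if its value was 10 or more in at least 4 of the 8 baseline libraries, which 14341 of 22880 genes met.

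The BK channel is a potassium channel of large conductance that opens when the membrane depolarises and intracellular calcium rises. Its pore-forming subunit is encoded by Kcnma1, and beta subunits (Kcnmb genes) and gamma subunits (leucine-rich repeat proteins such as Lrrc26) set its calcium and voltage sensitivity. In cortical neurons it shortens action potentials and limits transmitter release, and in blood vessels it relaxes smooth muscle. In bulk tissue such as this, fewer cells of a type and less RNA per cell cannot be told apart.

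Values are normalized counts, the deposited reads per gene divided by a factor for each library. Reads recovered from them ranged from 8.76 M in KO_BL 1, the shallowest library, to 27.1 M in KO_BL 4, and the WT_BL libraries held 17.8 to 24.2 M. KO_BL 1 also stood apart on the first principal component, which carried 31.4% of the variance. Replicates of a group differed far beyond counting noise, with a chi-square of 9.29 to 23.7 per degree of freedom for each pair, so no library was a duplicate. The neuronal marker Rbfox3 (4059 to 6007 in KO_BL, 5211 to 6245 in WT_BL) and Slc17a7, the vesicular glutamate transporter of cortical excitatory neurons (23040 to 32950 in KO_BL, 26400 to 29870 in WT_BL), were abundant in all 8 libraries, so defining markers of the labelled tissue were present.

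RNA of neighbouring tissue was uneven between single libraries. KO_BL 2 alone was high in 2 hypothalamic neuropeptide RNAs, with 1614 normalized counts of Avp (vasopressin) and 838.6 of Pmch (melanin-concentrating hormone). The other KO_BL libraries had at most 5.06 of Avp and 8.91 of Pmch, and the WT_BL libraries at most 3.28 and 8.74. Trh, another hypothalamic marker, was spread more widely, at 118, 495.3, 228.7 and 62.66 in KO_BL 1 to 4. It had 45.88, 19.71, 91.25 and 29.7 in WT_BL 1 to 4, so the groups overlapped. The choroid plexus gene Ttr (transthyretin) stood at 1017 in KO_BL 1 and at 18.2 to 26.3 in the other KO_BL libraries, against 10770 in WT_BL 1, 2922 in WT_BL 2, and 9.87 and 30.6 in WT_BL 3 and 4. The striatal adenosine receptor gene Adora2a ran from 95.1 to 626 in KO_BL and from 93.5 to 847 in WT_BL. Striatal RNA therefore varied about as widely within either group, while Avp, Pmch and Ttr RNA were each high in 1 to 3 animals.

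**Figure D1:**
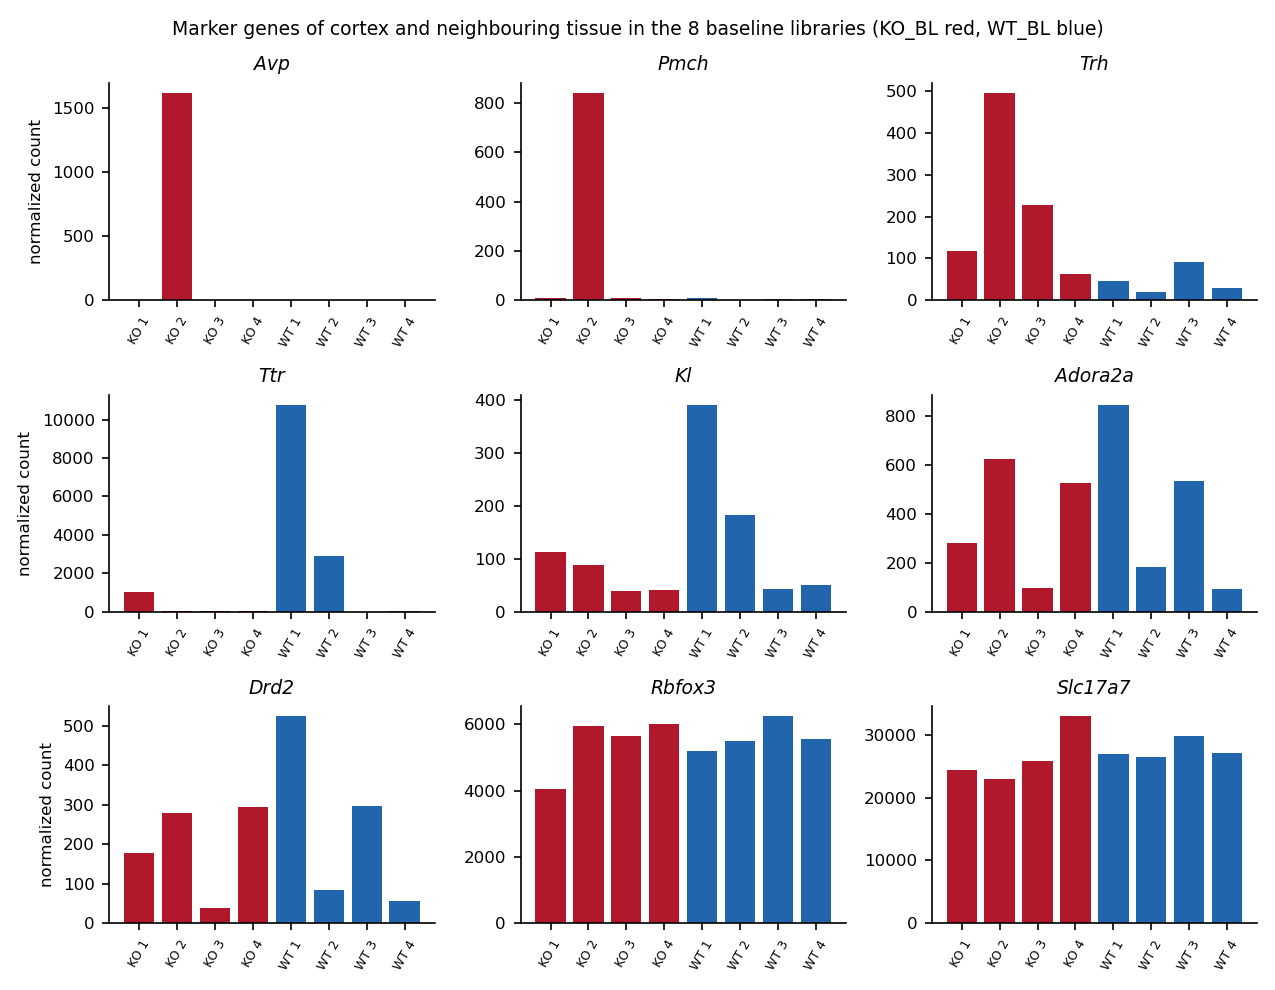
Normalized count (linear axis) of marker genes in each of the 8 baseline libraries, KO_BL in red and WT_BL in blue. Avp and Pmch are high in KO_BL 2 alone, Ttr and Kl are highest in WT_BL 1, the striatal genes Adora2a and Drd2 vary within both groups, and the neuronal gene Rbfox3 and the excitatory neuron gene Slc17a7 are present in all 8.

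Kcnma1, the targeted gene (chromosome 14, 23289431 to 24014491 on the minus strand of GRCm38), had reads in all 16 libraries. It had 2155, 1424, 2046 and 1600 normalized counts in KO_BL 1 to 4, against 1779, 1317, 1888 and 1151 in WT_BL 1 to 4. The groups overlapped over most of their range, and the mean was not lower in the mice labelled knockout (log2 fold change 0.24 ± 0.178 SE, 95% interval -0.15 to 0.64, limma with Benjamini-Hochberg adjusted p = 0.982). It had 1999, 1112, 801 and 431.6 in KO_SD 1 to 4, against 1107, 822.3, 911.8 and 1583 in WT_SD 1 to 4, and these groups overlapped as well. The labels do not say which part of Kcnma1 was disrupted. Reads from the rest of the gene enter the same count, so it does not check the genotype. Every direction below rests on the genotype labels.

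Among the 9 listed BK subunit genes, 6 passed the filter and 0 of these passed the limma test, against 0.0139% of all genes. With edgeR, DESeq2 and limma-voom it was also 0, and 1 of the 6 had an unadjusted p under 0.05, against 2.75% of all genes. Per length, in FPKM, Kcnmb4, which encodes the beta4 subunit typical of neurons, was the most abundant at 47.4 ± 11.6 in KO_BL and 53.3 ± 10.2 in WT_BL (SD, n = 4 each). Kcnma1 followed with 25.1 ± 4.69 in KO_BL and 21.3 ± 4.49 in WT_BL, and then the gamma subunit gene Lrrc55 with 12.5 ± 2.27 in KO_BL and 11.7 ± 2.43 in WT_BL. Kcnmb2 (1.78 ± 0.473 in KO_BL, 1.64 ± 0.11 in WT_BL) and Lrrc38 (1.04 ± 0.0779 in KO_BL, 0.98 ± 0.323 in WT_BL) were scarce. This order of levels was the same in both genotypes, and for each of these 5 genes the KO_BL and WT_BL libraries overlapped. Kcnmb3 and Lrrc26 were listed at 0 FPKM in all 8 libraries, and Lrrc52 was at 0 in 7 of 8.

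Kcnmb1, the beta1 subunit best known from vascular smooth muscle, was the one subunit gene whose groups did not overlap. It had 6.68, 9.08, 6.07 and 9.36 normalized counts in KO_BL 1 to 4, against 19.7, 16.6, 13.98 and 13.97 in WT_BL 1 to 4. The normalized counts stand for 3, 11, 6 and 13 reads in KO_BL 1 to 4, against 18, 16, 17 and 16 in WT_BL 1 to 4. The log2 fold change of -0.96 ± 0.301 SE did not pass (limma with Benjamini-Hochberg adjusted p = 0.982, unadjusted p = 0.00789). After sleep deprivation KO_SD held 11.1 to 14.6 and WT_SD 12.0 to 19.4, and these groups overlapped. Kcnmb1 lies inside the span of Kcnip1, introns included, on the opposite strand. The strandedness of the libraries is not given and overlap of exons was not examined, so how far reads of the 2 genes can be separated is not known. Kcnip1, which encodes a Kv4 channel-interacting protein, ran the other way, with 529 to 690 in KO_BL and 485 to 519 in WT_BL.

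Across all genes, 2 of 14341 passed in KO_BL against WT_BL at an adjusted p under 0.05 (0.0139%). Stbd1 was higher and Gm6768 was lower, each 0.00697% of the genes tested. At an unadjusted p under 0.05 there were 395 genes (2.75%), 209 higher (1.46%) and 186 lower (1.3%). At 255 genes (1.78%) the 4 KO_BL and 4 WT_BL libraries did not overlap, 151 higher (1.05%) and 104 lower (0.725%). The median log2 fold change was 0.00 and the median size 0.09. For the median gene the 95% interval of the log2 fold change reached 0.267 to either side, and 0.209 for genes above the median level. Smaller differences were thus out of reach for a typical gene with 4 animals a group. These intervals are not adjusted for the number of genes, and larger differences could also fail to pass, such as Plekha2 at 0.49. For baseline, 3 genes in the authors' deposited table had a false discovery rate under 0.05, Gm6768 (7.303e-18), Stbd1 (1.273e-07) and Tmem260 (0.02303).

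Stbd1, which encodes starch-binding domain protein 1, a protein that binds glycogen and tethers it to membranes (chromosome 5, 92603041 to 92606579, GRCm38), rose in KO_BL. It had 97.96, 94.1, 206.5 and 100.1 normalized counts in KO_BL 1 to 4, against 29.5, 32.2, 29.6 and 25.3 in WT_BL 1 to 4. Every KO_BL library lay at least at 94.1 and every WT_BL library at or below 32.2. Its log2 fold change of 1.98 ± 0.25 SE passed with limma (Benjamini-Hochberg adjusted p = 0.0318). The size did not rest on 1 animal, with 1.71 to 2.09 on leaving out each library in turn. The call itself held without KO_BL 3, the highest library, and was lost on leaving out each of the other 7 in turn, with limma adjusted p up to 0.306. It was also lost with edgeR on recovered reads (adjusted p = 0.0519, and between 2.58e-08 with DESeq2 and 0.52 with all 16 libraries in 1 model over the alternatives). In the sleep-deprived animals Stbd1 had 79.8, 79.8, 135.4 and 44.4 in KO_SD 1 to 4, against 91.9, 53.4, 26.7 and 25.6 in WT_SD 1 to 4. There the groups overlapped, with WT_SD 1 and 2 inside the knockout range, and the log2 fold change of 0.86 ± 0.433 SE did not pass (limma adjusted p = 1). Of the sleep-deprived libraries, WT_SD 3 and 4 were at or below the WT_BL maximum of 32.2, and none of KO_SD 1 to 4 was. The baseline and sleep-deprived sheets were normalized separately, so this cutoff is carried across tables.

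Gm6768 (chromosome 12, 119260978 to 119262855, GRCm38) is annotated as a processed pseudogene, so reads may be shared with the gene it was copied from, and its level is uncertain. It was at 4.45, 2.48, 0 and 0 normalized counts in KO_BL 1 to 4, against 72.1, 59.1, 64.1 and 54.2 in WT_BL 1 to 4. These correspond to 5 reads over the KO_BL libraries and 263 over the WT_BL libraries, and scaled for depth WT_BL was 50.1 times higher (exact 95% interval 21.2 to 156, counting error only). The fitted log2 fold change, which for so low a group depends on the added constant, was -4.92 ± 0.531 SE (limma with Benjamini-Hochberg adjusted p = 0.0135). Gm6768 met the filter only through the 4 WT_BL libraries, so separated groups were a condition of its being tested. In the sleep-deprived animals the gene stood at 0, 3.17, 4.48 and 3.70 in KO_SD 1 to 4 and at 5.33, 4.10, 0.99 and 0.77 in WT_SD 1 to 4. The 4 WT_BL animals were therefore high, and the 12 others, wild types among them, were near 0. The genotype difference did not pass as different between the sleep states (interaction, limma adjusted p = 0.634), although it did when the constant was 5 in place of 1.

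**Figure D2:**
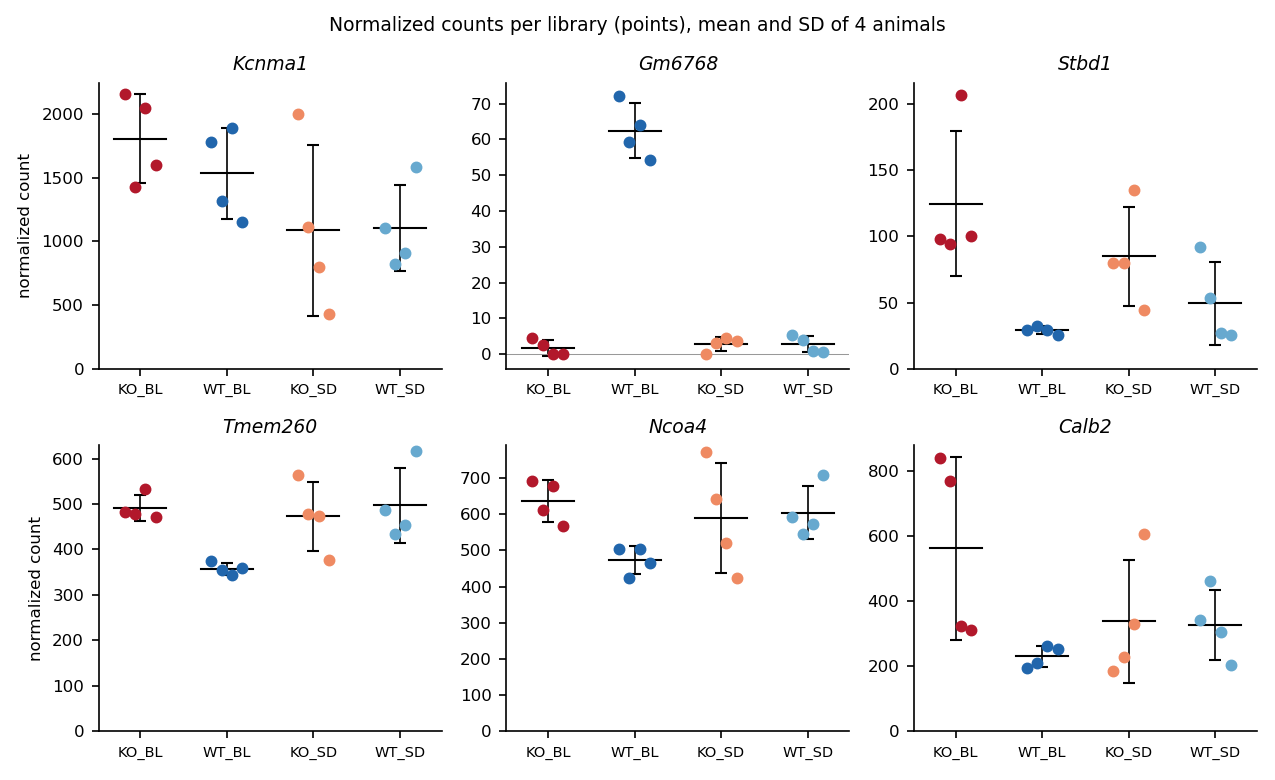
Normalized count (linear axis) of 6 genes in every library, with the mean and SD of 4 animals per group as black bars. Kcnma1 overlaps between genotypes in both sleep states, Gm6768 is high in WT_BL alone, Stbd1, Tmem260, Ncoa4 and Calb2 do not overlap between KO_BL and WT_BL, and each of these 4 overlaps between KO_SD and WT_SD.

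Another gene of chromosome 5, Gm15446, showed levels that were either high or near background in single animals. It had 536.5, 435.8, 235.8 and 226.1 normalized counts in KO_BL 1 to 4, against 10.9, 11.4, 224.4 and 13.97 in WT_BL 1 to 4. The sleep-deprived libraries had 329.7, 468.1, 524.7 and 18.5 in KO_SD 1 to 4, against 576.9, 242.9, 9.89 and 6.97 in WT_SD 1 to 4. High values thus occurred in 7 of 8 knockout and 3 of 8 wild type animals, and low values in both genotypes. The baseline log2 fold change of 3.66 ± 0.926 SE did not pass (limma adjusted p = 0.982), and it passed without WT_BL 3, the high wild type (4.68, limma adjusted p = 0.00015), the lone alternative under which it did, the others reaching adjusted p values up to 1. Gm15446 was picked out because of an earlier description of these data.

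Genes whose baseline groups did not overlap were unevenly spread over the genome. On chromosome 14, which carries Kcnma1, 25 of 485 tested genes (5.15%) did not overlap, 16 of them higher and 9 lower in KO_BL. On all other chromosomes together it was 229 of 13800 (1.66%), and the next highest was chromosome 18 with 3.48%. Mss51, Myh6 and Cbln3 are among the 25 and met the filter only through the group where they were higher. Their lack of overlap followed from the filter, as did that of Gm6768 and Kcnmb1 on other chromosomes. Of the 20 genes with the smallest p in the genome, 7 lay on chromosome 14. By distance from the Kcnma1 start, the share was 5 of 116 within 10 Mb (4.31%), 15 of 173 between 10 and 35 Mb (8.67%) and 5 of 195 farther away (2.56%). Limma over all genes called 0 of the 25, edgeR and limma-voom 0 and DESeq2 1 (Tmem260), and 27 of the 485 had an unadjusted p under 0.05 (5.57%), against 2.64% on the other chromosomes together and 5.08% on chromosome 13. On leaving out each library in turn the share was 5.98% to 9.48% on chromosome 14 and 2.76% to 6.63% elsewhere. The ratio of both shares was 3.11 with all 8 libraries, and between 1.37 (without WT_BL 1) and 2.61 (without KO_BL 1) with 7. The loss of BK and sequence linked to the targeted allele cannot be told apart in this design.

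Within 10 Mb of Kcnma1, 3 of the 116 tested genes had an unadjusted p under 0.05, which is near the 2.75% of all genes, and all 3 were without overlap. Ncoa4, which encodes the receptor that delivers ferritin to autophagy, had 692, 611, 678 and 568 normalized counts in KO_BL 1 to 4, against 505, 422, 504 and 465 in WT_BL 1 to 4 (log2 fold change 0.43 ± 0.0996 SE, limma adjusted p = 0.982). Mss51, a gene of skeletal muscle metabolism, was at a low 10.8 to 20.04 in KO_BL and 6.56 to 9.34 in WT_BL. Mss51 met the filter only through KO_BL, so its lack of overlap followed from the filter. Arhgap22, which encodes a GTPase-activating protein, was at 95.7 to 113.8 in KO_BL and 128.2 to 154.6 in WT_BL.

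Farther along the chromosome, Tmem260, which encodes a transmembrane mannosyltransferase, had the third smallest p of all genes. It had 483, 478, 533 and 472 normalized counts in KO_BL 1 to 4, against 374, 354, 343 and 358 in WT_BL 1 to 4, a tight and separated pair of groups. The log2 fold change of 0.46 ± 0.0875 SE had an unadjusted p of 0.000214 and did not pass with limma (adjusted p = 0.982). It passed with DESeq2 on recovered reads (Benjamini-Hochberg adjusted p = 0.0205) and under no other alternative (up to 1). Ldb3, which encodes a Z-disc protein of striated muscle, had 167, 186.5, 181 and 142 in KO_BL 1 to 4, against 90.7, 108, 74.0 and 124 in WT_BL 1 to 4 (0.78 ± 0.174, limma adjusted p = 0.982). The endothelial matrix gene Mmrn2 ran the other way, with 49.6 to 54.5 in KO_BL and 70.7 to 130.0 in WT_BL.

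A run of neighbouring genes about 31 Mb from Kcnma1 held both directions. Ppp1r3e, which encodes a subunit that directs a phosphatase to glycogen, was at 118 to 178 in KO_BL and 92.1 to 106 in WT_BL (log2 fold change 0.55 ± 0.152 SE, limma adjusted p = 0.982). Cmtm5, an oligodendrocyte gene, was at 336 to 451 in KO_BL and 480 to 644 in WT_BL (-0.51 ± 0.12, limma adjusted p = 0.982). Myh6, the cardiac alpha myosin heavy chain, was at 2.23, 0, 6.07 and 4.32 in KO_BL 1 to 4, against 12.0, 13.5, 27.1 and 18.3 in WT_BL 1 to 4, a difference between low counts. Myh6 met the filter only through WT_BL, so its lack of overlap followed from the filter. Pck2, the mitochondrial phosphoenolpyruvate carboxykinase, was at 301 to 434 in KO_BL and 461 to 508 in WT_BL. Farther still, Htr2a, the serotonin 2A receptor, was at 456 to 592 in KO_BL and 199 to 446 in WT_BL, and Klhl1, a kelch-like protein gene, at 94.1 to 151 in KO_BL and 55.0 to 84.7 in WT_BL.

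The chromosome 14 differences were smaller in the sleep-deprived animals, which share no library with the baseline groups. Of the 25 genes 24 were tested there, 19 with the same sign and 0 without overlap, and the median size of the log2 fold change was 0.385 at baseline and 0.129 after sleep deprivation. Over the whole chromosome 10 of 473 genes (2.11%) were without overlap between KO_SD and WT_SD, against 1.31% on the others, and chromosomes 1 (2.45%) and 10 (2.21%) were higher. A smaller size in animals that did not choose the genes is not by itself a change with sleep state: in the interaction 5 of the 25 had an unadjusted p under 0.05 and 0 passed with limma. Tmem260 shows the pattern, with 563, 478, 474 and 377 in KO_SD 1 to 4, against 486, 433, 453 and 616 in WT_SD 1 to 4. For 7 of the 25 genes (Arhgap22, Cnih1, Tmem260, Tox4, Ppp1r3e, Myh6 and Thtpa) the 4 WT_BL animals lay outside the range of all 12 others. Over all tested chromosome 14 genes WT_BL lay outside in 1.44% and KO_BL in 0.619%, against 0.13% and 0.167% on the other chromosomes (26 of 14341 genes, 0.181%, for either group over the genome). These shares partly repeat the separation at baseline that chose the 25. WT_BL lay outside the sleep-deprived libraries in 28% of the 25 and 10.4% of other genes separated at baseline. For KO_BL it was 20% and 10.4%. The baseline and sleep-deprived sheets were normalized separately, so these comparisons set levels across tables.

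**Figure D3:**
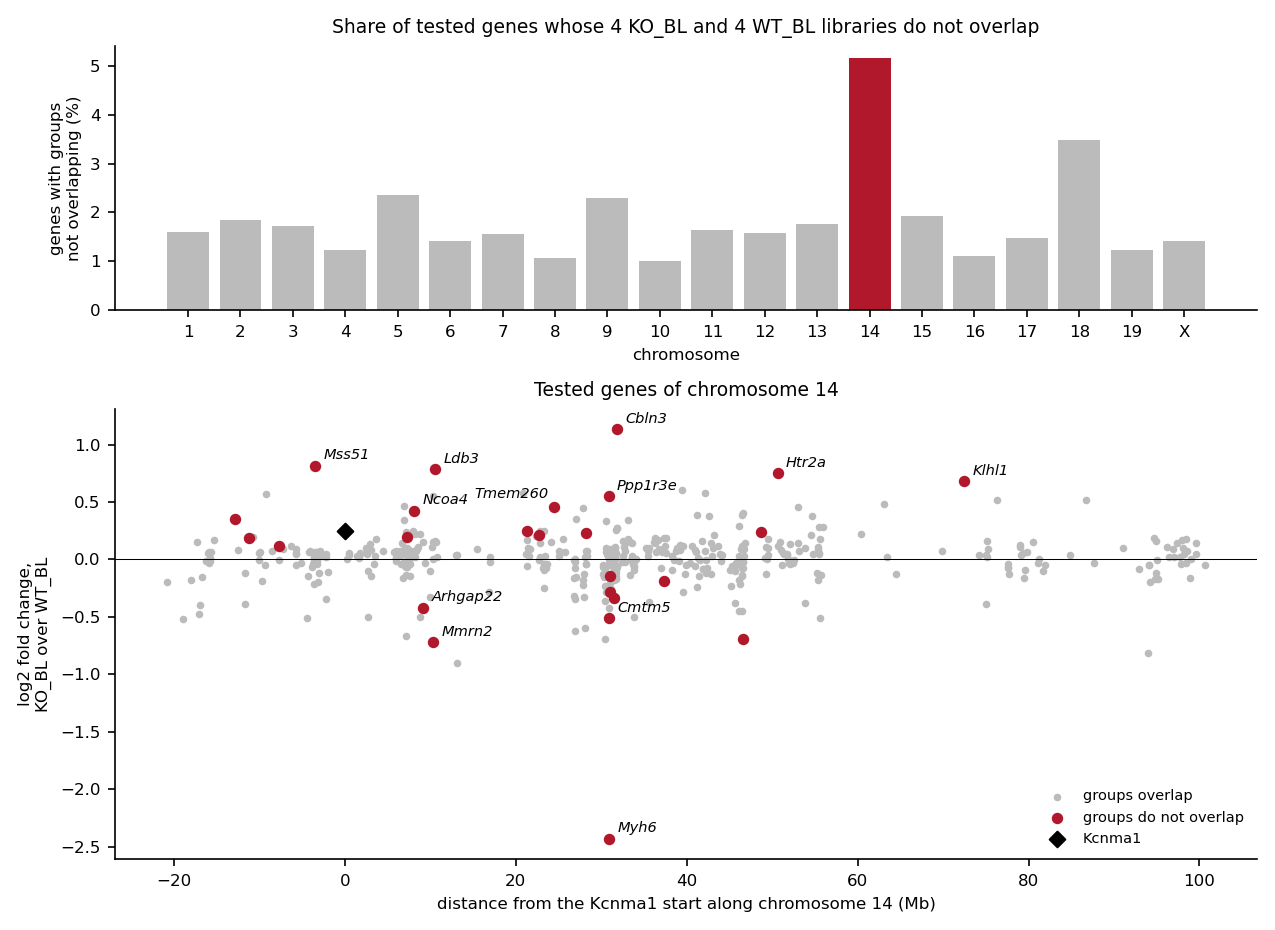
Upper panel, share of tested genes per chromosome whose KO_BL and WT_BL libraries do not overlap, in percent. Chromosome 14 (red) is highest at 5.15%. Lower panel, log2 fold change of KO_BL over WT_BL for each tested chromosome 14 gene against its distance from the Kcnma1 start in Mb, where red points are the 25 genes without overlap and the diamond is Kcnma1.

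Among genes above the median level that had an unadjusted p under 0.05, no overlap and a full gene symbol, 37 were higher and 9 lower in KO_BL. Over all 14341 tested genes, 151 were higher and 104 lower without overlap, and 209 higher and 186 lower at an unadjusted limma p under 0.05. The 12 highest of those 37 and all 9 lower ones, described here, differed by less than 2-fold, and none passed with limma (adjusted p = 0.982 for each). On the higher side Plekha2, which encodes a phosphoinositide-binding adaptor, had 966, 758, 720 and 713 normalized counts in KO_BL 1 to 4, against 553, 538, 536 and 609 in WT_BL 1 to 4 (log2 fold change 0.49 ± 0.108 SE). Cbln2, which encodes a secreted cerebellin that organises synapses, had 928, 944, 841 and 847 in KO_BL 1 to 4, against 615, 681, 711 and 713 in WT_BL 1 to 4 (0.39 ± 0.0852). Gng4, a G protein gamma subunit gene, was at 2565 in KO_BL 1 and 979.5 to 1038 in the other 3, against 587 to 926 in WT_BL, and its log2 fold change of 0.75 ± 0.318 SE was 0.41 without KO_BL 1. The others on this side included the axon guidance gene Sema3a (0.29 ± 0.0979), the formin gene Fhod3 (0.28 ± 0.0902) and the sterol transport gene Stard4 (0.27 ± 0.0934). Lhfp, Trim66, Ttc39b, D10Wsu102e, Kcnip1 and Ncoa4 completed the 12 highest.

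On the lower side were the 9 genes. Tubb2b, a beta-tubulin gene of growing neurites, had 1547, 1250, 1576 and 1427 normalized counts in KO_BL 1 to 4, against 2185, 1688, 2024 and 1611 in WT_BL 1 to 4 (log2 fold change -0.37 ± 0.113 SE). Acss1, the mitochondrial acetyl-CoA synthetase, was at 386 to 472 in KO_BL and 487 to 641 in WT_BL (-0.35 ± 0.109). Lgi4 (-0.34 ± 0.095), a secreted glial protein of myelination, and Car4 (-0.28 ± 0.0869), a membrane-bound carbonic anhydrase, followed. Rpsa, S100a16, Mknk1 and Coq2 had differences of -0.25 to -0.19. The spans of Fhod3, Lgi4 and D10Wsu102e, introns included, overlap genes of the opposite strand. Whether their exons overlap was not examined, so how far the reads can be separated is not known.

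**Figure D4:**
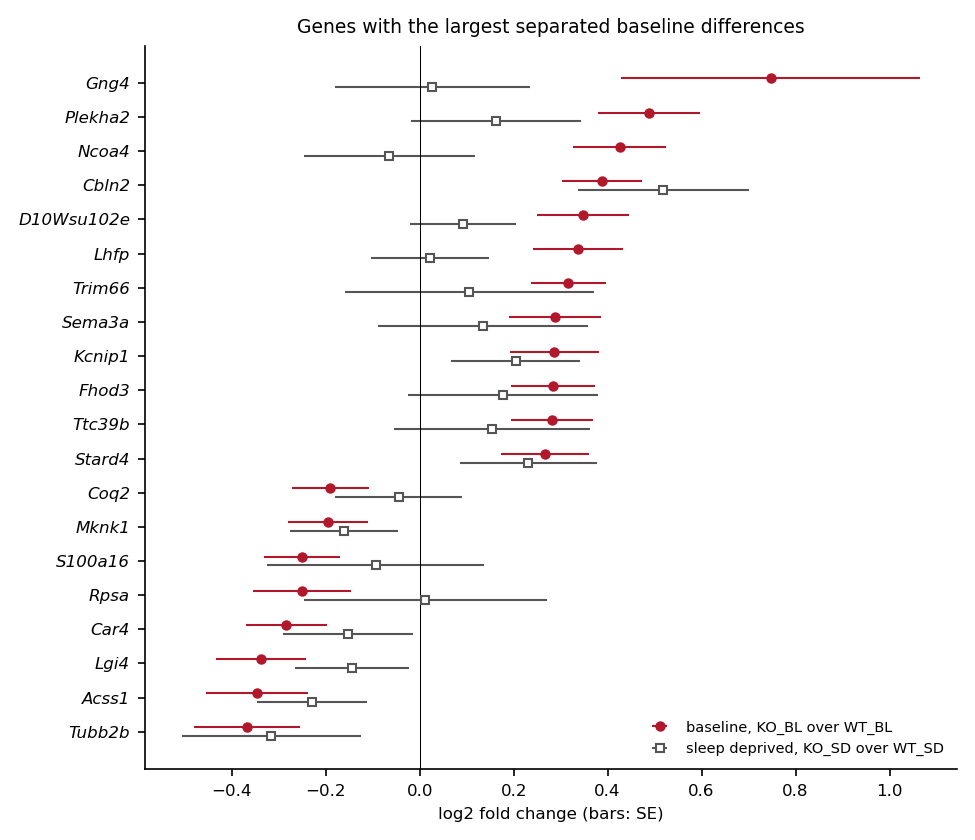
Log2 fold change of knockout over wild type, with SE bars, for the 12 higher and 8 of the 9 lower genes, at baseline (red circles) and in the sleep-deprived animals (open squares). The baseline values chose the genes. Among the squares, those of Ncoa4 and Rpsa lie on the other side of 0, and most lie nearer to 0 than the circles.

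Over the 252 genes without overlap at baseline that were tested in the sleep-deprived animals, 198 (78.6%) had the same sign there, against 61.3% of all 14161 genes tested in both. Their median size was 0.251 at baseline and 0.116 after sleep deprivation. Limma called 0 of 14280 genes in KO_SD against WT_SD (0%), with 232 at an unadjusted p under 0.05 (1.62%) and 193 without overlap (1.35%), and count-based tools were not run there. Limma called 0 of 14604 genes in the interaction, with 160 at an unadjusted p under 0.05 (1.1%). At 6 of the 252 genes the groups did not overlap in the sleep-deprived animals either, all 6 in the same direction as at baseline. Over all genes tested in KO_SD against WT_SD it was 193 of 14280 (1.35%).

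Of those 6, Adcyap1, which encodes the neuropeptide PACAP, had 383, 418, 392 and 343 normalized counts in KO_BL 1 to 4, against 313.5, 330, 321 and 279.5 in WT_BL 1 to 4. It had 605.5, 611, 480 and 478 in KO_SD 1 to 4, against 388, 411, 405.5 and 246 in WT_SD 1 to 4. Its mean was higher in the knockouts of both sleep states, but these same values chose the gene. The log2 fold changes of 0.30 ± 0.102 SE at baseline and 0.60 ± 0.182 SE after sleep deprivation did not pass (limma adjusted p = 0.982 and 1). Srxn1, an antioxidant sulfiredoxin, was at 2082 to 2295 in KO_BL against 1822 to 2001 in WT_BL, and at 2368 to 2730 in KO_SD against 1973 to 2224 in WT_SD. F5, coagulation factor V, was at 4.95 to 10.1 in KO_BL against 11.5 to 123 in WT_BL, and at 3.36 to 12.3 in KO_SD against 12.9 to 21.3 in WT_SD. Its highest values were in WT_BL 1 and 2, the libraries with most Ttr, and the part of choroid plexus RNA in this difference was not tested. Slc35e3 was higher in both, and Pgap2 and 8430408G22Rik lower. 8430408G22Rik overlaps Rassf4 on the opposite strand.

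The gene lists, 29 of which had 5 or more tested members, stayed close to the centre of all genes at baseline. No listed gene passed with limma, nor with edgeR, DESeq2 or limma-voom on recovered reads, and most lists had a median log2 fold change within 0.1 of 0. Over all genes 50.9% had a higher mean in KO_BL and the median was 0.00.

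Most other channel lists were near an even split. Of 60 other potassium channel genes 30 were higher and 30 lower, with a median of 0.00 and 3 at an unadjusted p under 0.05 (against 2.75% of all genes). The small-conductance calcium-activated channel genes Kcnn2 (546 to 592 in KO_BL, 551 to 817 in WT_BL) and Kcnn1 (269 to 375 in KO_BL, 316 to 394 in WT_BL) were lower on average by 0.23 ± 0.117 and 0.24 ± 0.123 SE, with overlapping groups. Voltage-gated calcium channel genes had 7 higher and 8 lower of 15 and a median of -0.03. Sodium channel and HCN genes had 9 of 12 higher, with a median of 0.06, against 50.9% of all genes. The pacemaker channel gene Hcn4 had 64.6, 112, 53.6 and 50.4 in KO_BL 1 to 4, against 49.2, 21.8, 67.4 and 27.95 in WT_BL 1 to 4 (log2 fold change 0.80 ± 0.361 SE). In sleep-deprived animals Hcn4 stood the other way, at 12.3 to 19.6 in KO_SD and 20.8 to 33.7 in WT_SD, and the interaction had an unadjusted p of 0.00317 and did not pass (limma adjusted p = 1).

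Activity, clock and stress genes also showed no called change at baseline. Of 39 immediate early genes 17 were higher and 22 lower, with a median of -0.01. Bdnf, a neurotrophin gene, was at 468 to 695 in KO_BL and 435 to 515.5 in WT_BL (log2 fold change 0.28 ± 0.121 SE). The 22 clock genes were split 11 and 11, and Dbp, a clock output gene, was at 660 to 949 in KO_BL and 889 to 1161 in WT_BL (-0.38 ± 0.129). Of 20 endoplasmic reticulum chaperone genes 18 were higher, by small amounts (median 0.08), against 50.9% of all genes. Among them Hspa5, the chaperone BiP, was at 4589 to 5886 in KO_BL and 3864 to 4691 in WT_BL (0.25 ± 0.0977), and Atf6, a sensor of unfolded proteins, at 2378 to 2636 in KO_BL and 2209 to 2325 in WT_BL (0.17 ± 0.0693). Genes of transmitter release had 19 of 25 higher and a median of 0.02, and 1 of the 25 was without overlap, against 1.78% of all genes.

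Calb2, which encodes calretinin, was the listed gene with the largest difference among those without overlap. It had 842, 772, 325 and 313 normalized counts in KO_BL 1 to 4, against 195.5, 209.6, 262 and 254 in WT_BL 1 to 4. KO_BL 1 and 2 were far above the rest, and the log2 fold change of 1.15 ± 0.334 SE did not pass (limma adjusted p = 0.982). Calretinin marks an interneuron class and also thalamic and hypothalamic neurons, and KO_BL 2 was the library high in Avp and Pmch RNA. The GABA-synthesising enzyme gene Gad1 was likewise highest in these libraries, at 10780 and 9114 in KO_BL 1 and 2 and 7592 and 6357 in KO_BL 3 and 4, against 6380 to 7515 in WT_BL. Of 18 interneuron markers 10 were higher, with a median of 0.13, which was 0.02 without KO_BL 2. After sleep deprivation Calb2 was at 185 to 608 in KO_SD and 202 to 462 in WT_SD. The part of neighbouring tissue in these values was not tested.

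Among oligodendrocyte lineage and hippocampal markers more genes had a lower than a higher mean in KO_BL. Of 12 oligodendrocyte precursor markers 10 were lower, with a median of -0.13. Olig1, a transcription factor of that lineage, had 739, 1130, 834 and 1052 normalized counts in KO_BL 1 to 4, against 1123, 1245, 1209 and 1237 in WT_BL 1 to 4 (log2 fold change -0.38 ± 0.124 SE). Neu4, a sialidase gene of oligodendrocyte precursors, was at 129 to 157 in KO_BL and 168.5 to 188 in WT_BL (-0.30 ± 0.119). Mature myelin genes had 13 of 16 lower, a median of -0.11 and 0 without overlap (against 1.78% of all genes). Their level, averaged over the genes, varied widely in both groups. It ran from -0.47 to 0.14 in KO_BL and from -0.46 to 0.41 in WT_BL on a log2 scale centred on the average library. Of 15 hippocampal markers 11 were lower, with a median of -0.18, and a level of -0.41 to 0.12 in KO_BL and -0.22 to 0.40 in WT_BL. Cabp7, a calcium-binding protein gene of hippocampal neurons, stood at 364 to 539 in KO_BL and 530 to 1092 in WT_BL, and it was high in WT_BL 1 and 2. The part of hippocampal and white matter RNA in these values was not tested.

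Astrocyte, microglial and endothelial lists had medians of 0.02, 0.00 and -0.01. Of their genes 0 were without overlap (against 1.78% of all genes) and 0 at an unadjusted limma p under 0.05 (against 2.75%). Of the cytosolic ribosomal protein genes 21 were higher and 32 lower, with a median of -0.03. The 7 tested mitochondrial transcripts were all lower on average, with a median of -0.07. The one far from 0 was mt-Nd6, encoded on the light strand, with 951, 324, 478 and 594 in KO_BL 1 to 4, against 767, 970, 1155 and 970 in WT_BL 1 to 4 (log2 fold change -0.81 ± 0.288 SE, limma adjusted p = 0.982). The span of mt-Nd6 overlaps that of mt-Nd5 on the other strand. The extent of this overlap was not examined, so how far their reads can be separated is not known.

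The remaining lists had medians between -0.12 and 0.13. Glutamate and GABA receptor genes had 22 of 36 higher (median 0.03), calcium store and handling genes 14 of 25 (0.06), and nitric oxide and cGMP signalling genes 9 of 12 (0.07). Glucocorticoid-responsive genes were split 9 and 9 (0.00). Cortical layer markers had 15 of 20 lower (-0.09) and defining neuronal markers 7 of 9 lower (-0.07). Among lists of neighbouring tissue, striatal markers had 9 of 15 higher (0.09), thalamic and hypothalamic markers 6 of 10 higher (0.03), meningeal markers 7 of 12 higher (0.13), choroid plexus markers 5 of 7 lower (-0.08) and blood genes 6 of 7 lower (-0.12).

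**Figure D5:**
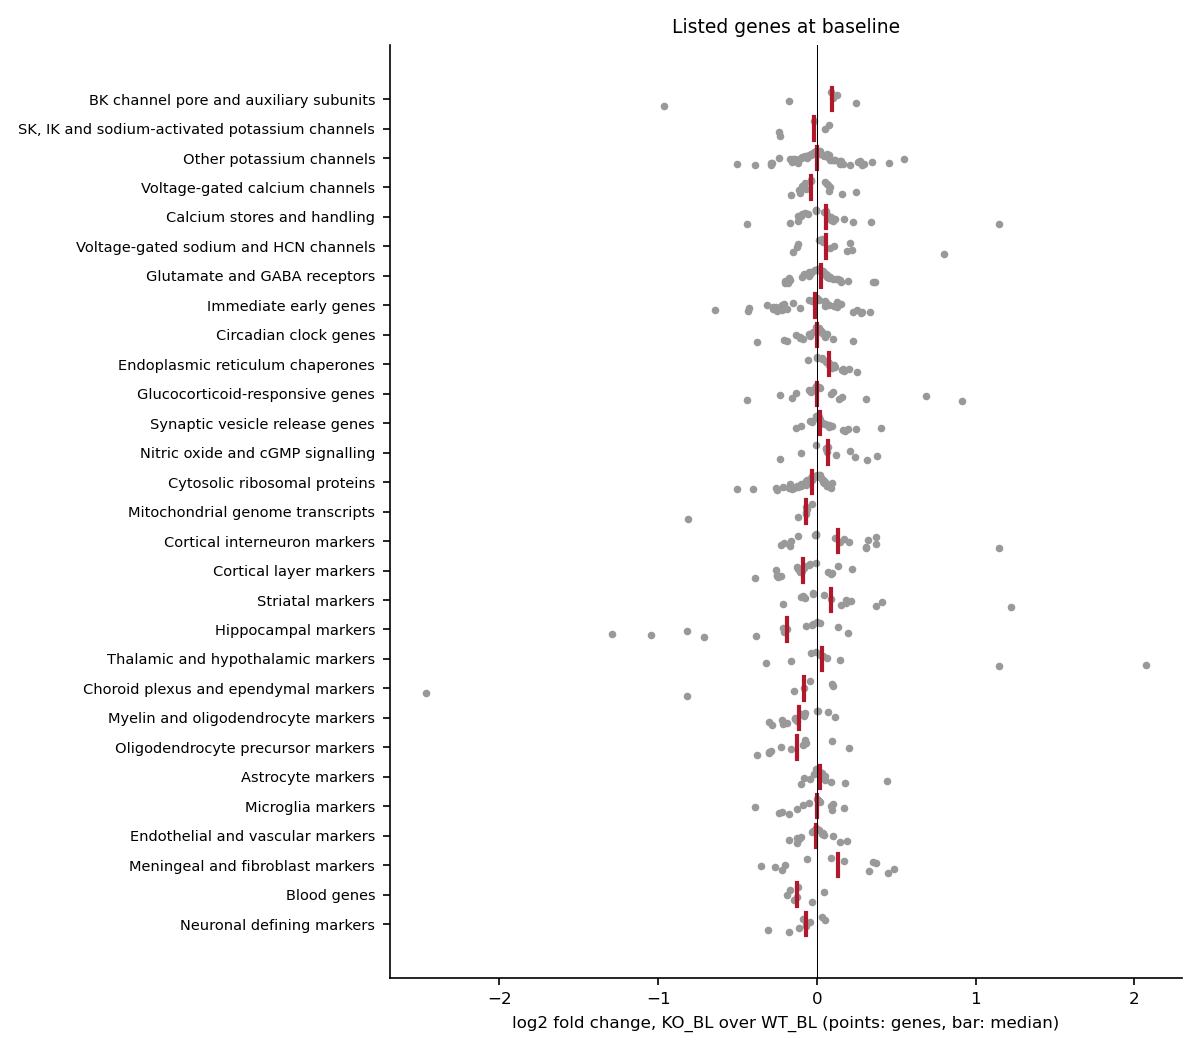
Log2 fold change of KO_BL over WT_BL for the tested genes of 29 lists (grey points) with the list median (red bar). Medians lie between -0.18 and 0.13, and the points farthest from 0 are Ttr (-2.46) and Trh (2.07), markers of choroid plexus and hypothalamus.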

How the data were processed

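Per the labels' protocols, total RNA of mouse cortex was column-purified, treated with DNase and run on a HiSeq2500. RSEM 1.2.19, edgeR, mm10 and GRCm38 appear in the submitters' processing notes with no role stated. The annotation release and strandedness were not given in the sources used here. Deposited per gene were normalized counts, a signal the authors made by dividing gene counts by a factor per library, and FPKM values, used to compare levels between genes. The authors' p-values and false discovery rates were used only as deposited. The log2 ratio the authors deposited (wild type over knockout) was used to check its direction and is not printed, because its sizes differ from those of the normalized counts. The GC fraction and gene length, per the file headers, entered no test. A further 104 per-sample columns were not used.

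Each pairwise test used 1 sheet. The test was limma 3.58.1 (R 4.3.3) on log2(normalized count + 1), with a trended prior and the robust option, two-sided, Benjamini-Hochberg adjusted at 0.05, in place of a count test because the values are normalized. A fold change on this scale understates that of low genes. The interaction fit held all 16 libraries. In every baseline library 100% of values up to 20 reads were whole multiples of 1 step within 0.1 read, so reads were recovered there and tested with edgeR 4.0.16 (1 gene called), DESeq2 1.42.0 (3) and limma-voom (1). On simulated counts for 14341 genes at baseline, limma recovered 61% of 1.5-fold and 90% of 2-fold changes with 15 false calls. These changes were planted together, in genes with more than 20 expected reads, and were many more than the genes called in the real comparison. The adjusted threshold loosens as more genes change, so these shares do not say how many such changes the real comparison would find. Chance is not weighed for lists, which are given by counts and medians.

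The 8 libraries and the lists were chosen with earlier results of these data known. The rule named the BK genes, all called genes, the 12 highest and 12 lowest differences without overlap, with unadjusted p under 0.05, above the median level and with no placeholder symbol (9 qualified as lower), up to 3 genes per list by p, genes within 10 Mb of Kcnma1 with p under 0.05, Gm6768 and Gm15446. Other chromosome 14 genes, those without overlap in both sleep states, and Gm15446's pattern were named after their values were seen. Positions come from GENCODE M21 on GRCm38, which matched 22570 of 22880 identifiers. The labels do not say whether same-numbered libraries are paired, so the main test had no replicate block. The smallest two-sided p of an exact permutation test with 4 against 4 is 0.0286. Alternatives were other scalings, pseudocounts, filters and tests, 1 model of all 16 libraries, the replicate block and leaving out each library. Shares of genes without overlap on leaving out libraries were added after seeing the data. A gene that met the naming rule is not reported here.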

Additional observations from a re-analysis of the deposited data

Results flagged for a closer look

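Among 204 groups of 4 values examined (genes followed over the settings and list scores, in KO_BL and in WT_BL), 7 held 1 library far from the other 3, where chance flags about 1 in 20 groups. In KO_BL, Stbd1 was 206.5 normalized counts in KO_BL 3, against 94.1 to 100.1 in the other 3 KO_BL libraries. Gng4 was 2565 in KO_BL 1, against 979.5 to 1038 in the others, and Rpsa was 3513 in KO_BL 1, against 4625 to 4794. Ttr was 1017 in KO_BL 1, against 18.2 to 26.3. In WT_BL, Gm15446 was 224.4 in WT_BL 3, against 10.9 to 13.97 in the other 3 WT_BL libraries. Kcnn1 was 315.7 in WT_BL 1, against 386 to 394, and Gad1 was 7515 in WT_BL 1, against 6380 to 6485. KO_BL 1 accounts for 3 of the 7.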

How the results depend on the processing

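The count of called baseline genes was 2, and it was 2 under TMM, median-of-ratios and quantile scaling, a pseudocount of 5, both other filters, and with the replicate block, which left Gm6768 and Stbd1 called and put 817 genes under an unadjusted p of 0.05. Whether the numbers pair animals is not known. Deviations of same-numbered KO_BL and WT_BL libraries correlated at 0.227, -0.185, 0.0618 and 0.305, the first and last being the highest of all pairs, and not every library correlated best with its own number. The count was 0 with a pseudocount of 0.5 (adjusted p = 0.0525 for both genes) and 0 without trend and robust steps, and the cause was not tested. It was 1, Gm6768, with edgeR, with limma-voom and with all 16 libraries in 1 model, and 3 with DESeq2, which added Tmem260. Leaving out libraries gave 0 to 2. Without WT_BL 1, 2 or 4 it was 0, because Gm6768 then has too few libraries at 10 or more to be tested and Stbd1 does not pass, and without WT_BL 3 it was Gm15446 alone. Stbd1 kept its call in 9 of 21 settings and Gm6768 in 15 of the 17 that tested it. Kcnma1 stayed within 0.12 to 0.35 and passed in none. KO_SD against WT_SD gave 0 throughout, and the interaction 0 except 1, Gm6768, with a pseudocount of 5. Count-based tests were not run for these 2, because whole reads of WT_SD 3 could not be recovered. Of 72 genes followed, 69 kept their sign. On leaving out single libraries Kcnmb2 ran from -0.0632 (without KO_BL 3) to 0.197, Lrrc38 from -0.0441 (without WT_BL 1) to 0.307 and Lrrc55 from -0.00899 (without KO_BL 1) to 0.213, none of them past the threshold. Of 330 recomputed list medians 7 moved by more than 1 SD of the list score. With 4 animals a group, differences under about 0.267 on the log2 scale are below the reach of the median gene, and KO_BL 1, with 8.76 M reads, limits low genes most. That figure is not adjusted for the number of genes, so larger differences can also fail to pass.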

Other observations

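Because Stbd1 and Ppp1r3e both encode glycogen-binding proteins, 22 genes of glycogen metabolism were looked at after these values were seen. Of them 9 were higher and 13 lower in KO_BL, and the median log2 fold change was -0.02, against 0.00 over all genes. Of them 1 passed with limma (Stbd1, against 0.0139% of all genes) and 3 had an unadjusted p under 0.05 (against 2.75%), but Stbd1 and Ppp1r3e, which prompted the list, are among these. Gbe1, the glycogen branching enzyme, was the other at 0.37 ± 0.158 SE (limma adjusted p = 0.982), and Gys1, the synthase of muscle and brain, was at -0.03 ± 0.104 SE. The glycogen phosphorylases Pygb, Pygm and Pygl were at -0.01, -0.02 and 0.04.

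Cerebellins, secreted proteins that bridge presynaptic neurexins and postsynaptic delta glutamate receptors, were looked at in the same way because Cbln2 and Cbln3 did not overlap between groups. All 4 cerebellin genes had a higher mean in KO_BL, but Cbln2 and Cbln3 had prompted the list. Cbln3 met the filter only through KO_BL, so its lack of overlap followed from the filter. Cbln4 averaged 351 ± 76.1 in KO_BL and 225 ± 37.1 in WT_BL (SD, n = 4 each), with overlapping groups and a log2 fold change of 0.63 ± 0.169 SE, and Cbln1 was at 0.06 ± 0.252 SE. Of their 5 binding partners 3 were higher, and of the 9 genes 0 passed with limma, edgeR, DESeq2 or limma-voom. With an unadjusted p under 0.05 there were 3 (against 2.75% of all genes), Cbln4 and the prompting Cbln2 and Cbln3. In the sleep-deprived animals Cbln2 was at 1026 to 1886 in KO_SD and 829 to 1093 in WT_SD, and Cbln4 differed by 0.01. The log2 fold change there was 0.43 ± 0.809 SE for Cbln3 and -0.33 ± 0.22 SE for Cbln1, the other way.

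Sult1a1, a sulfotransferase gene, had opposite signs in the sleep states. It was at 66.98 to 215 in KO_BL and 52.4 to 88.0 in WT_BL, and at 91.5 to 185 in KO_SD and 156.8 to 227.8 in WT_SD, with an unadjusted interaction p of 0.00213 that did not pass (limma adjusted p = 1).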
